A study of Mus musculus with 6 samples.

Results

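Transcripts of 10 genes for non-collagen matrix proteins, Postn, Bgn, Dcn, Lum, Fn1, Sparc, Tnc, Thbs1, Thbs2 and Fbn1, were measured in mouse epididymal white adipose tissue, a visceral depot that lies against the epididymis. The genes were taken by symbol from the deposited gene table, and 10 of 10 were found among its 48897 genes. The study asked how repeated switching of diet affects metabolic homeostasis. It sequenced messenger RNA in 6 libraries, 2 for each of 3 groups of wild type C57BL/6 mice aged 35 weeks whose diets began at 6 weeks of age. Group F-H-L is read as 9 weeks of a diet with 60% of calories from fat, followed by 10 cycles of 1 week on a diet with 10% of calories from fat and 1 week back on the high-fat diet. Group F-H is read as continuous high-fat feeding and group F-L as continuous low-fat feeding. Only the letters of these codes link them to the diets in the labels, and each cycle finished with its high-fat week. Whether the libraries of a group are separate mice is not stated there, so p-values measure how far these libraries spread, and that spread may be technical.

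The extracellular matrix of fat is a collagen mesh spaced and decorated by proteoglycans, crossed by fibronectin and fibrillin fibres, and modulated by matricellular proteins, which sit in the matrix and act on cells more than they bear load. Most of it is made by fibroblast-like progenitors, with contributions from adipocytes, vessel cells and macrophages. Matrix is known to accumulate in visceral fat during obesity, where it stiffens the tissue around enlarged adipocytes.

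One library stood apart from the others. F-L replicate 1 had a summed level of 3062 RPKM (counts scaled to gene length and library total, as deposited) over 20 adipocyte markers, against 12324 to 34961 RPKM in the other 5 libraries. Its 20 epididymis epithelium markers summed to 13649 RPKM, above its adipocyte sum, which goes against a label of fat alone. In F-L replicate 2 the epididymis sum was 2858 RPKM, and 14 testis germ cell markers summed to 7938 RPKM. Epididymis sums were 1107 to 1234 RPKM in F-H-L and 2.14 to 374 RPKM in F-H, where up to 10 of the 20 markers, Gpx5 and Lcn5 among them, were at 0 counts. All 20 adipocyte markers were detected in all 6 libraries. Fold changes and calls against F-L are therefore also given without each F-L library below, while the likeness of profiles is given for all 6 libraries alone. A fit without an F-L library leaves 1 library in that group, so its calls rest on the spread of the other groups. Total counts ran from 41091012 to 49230161 per library.

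The 10 transcripts together summed to 2693 and 2704 RPKM in the F-H-L libraries, 1736 and 3023 RPKM in the F-H libraries, and 397 and 1481 RPKM in the F-L libraries. Their order of level was much the same in every library, with Sparc, Dcn and Bgn at the top, in that order, and Thbs2 and then Tnc at the bottom in all 6. For each of the 10 genes the lowest of the 6 libraries was F-L replicate 1. The highest was F-H replicate 2 for 9 genes and F-H-L replicate 2 for Sparc.

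Decorin, biglycan and lumican are small leucine-rich proteoglycans, which bind collagen fibrils and regulate their width and spacing. Dcn (Entrez 13179, mm10 chromosome 10, 97479500 to 97518163), also known to bind TGF-beta, was at 442 and 431 RPKM in F-H-L, 453 and 819 RPKM in F-H, and 156 and 358 RPKM in F-L. Both F-L libraries lay below all 4 others, and F-H replicate 1 stood barely above F-H-L. Bgn (Entrez 12111, chromosome X, 73483601 to 73495936), whose soluble form is known to activate Toll-like receptors, was at 117 and 123 RPKM in F-H-L, 207 and 245 RPKM in F-H, and 43.5 and 70.0 RPKM in F-L. The 3 groups did not overlap, with the F-L libraries 1.61-fold apart and the F-H libraries 1.18-fold apart. Lum (Entrez 17022, chromosome 10, 97565501 to 97572703) was at 50.05 and 30.2 RPKM in F-H-L, 115 and 134 RPKM in F-H, and 4.67 and 21.9 RPKM in F-L. Its groups did not overlap either, although the F-L libraries differed 4.69-fold. Of the 10 genes, Lum had the widest range over the 6 libraries, 28.7-fold from lowest to highest.

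Fibronectin and fibrillin-1 form fibres: fibronectin is laid down early as a scaffold that cells grip through integrins, and fibrillin-1 builds the microfibrils that carry elastin and hold latent TGF-beta. Fn1 (Entrez 14268, chromosome 1, 71585473 to 71653234) was at 65.0 and 38.5 RPKM in F-H-L, 85.1 and 105 RPKM in F-H, and 5.16 and 45.5 RPKM in F-L. F-H lay above both other groups, which overlapped each other. Fbn1 (Entrez 14118, chromosome 2, 125300594 to 125506485) was at 28.2 and 18.7 RPKM in F-H-L, 41.2 and 44.4 RPKM in F-H, and 2.99 and 20.2 RPKM in F-L. The pattern was that of Fn1, with F-H high in both libraries and F-L replicate 2 inside the F-H-L range. The ratio of Fn1 to Fbn1 stayed between 1.73 and 2.38 in all 6 libraries.

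The other 5 genes encode matricellular proteins. Sparc (Entrez 20692, chromosome 11, 55394159 to 55420080), a collagen-binding protein that adipocytes also secrete, was at 1888 and 1976 RPKM in F-H-L, 731 and 1485 RPKM in F-H, and 165 and 901 RPKM in F-L. It was the only one of the 10 genes with both F-H-L libraries above both F-H libraries, and F-H overlapped F-L. Postn (Entrez 50706, chromosome 3, 54359272 to 54391041), which encodes periostin, a protein of collagen-rich and remodelling tissue, was at 86.4 and 69.2 RPKM in F-H-L, 75.6 and 136 RPKM in F-H, and 15.8 and 28.9 RPKM in F-L. F-L lay below both other groups, and those overlapped. Tnc (Entrez 21923, chromosome 4, 63959785 to 64047015), which encodes tenascin-C, a protein of wounds and inflamed tissue, was at 1.54 and 2.78 RPKM in F-H-L, 1.83 and 2.78 RPKM in F-H, and 0.360 and 1.53 RPKM in F-L. The F-H-L range covered nearly all of the F-H range, and F-L replicate 2 came just below F-H-L replicate 1. Tnc had the fewest reads of the 10, with 109 counts in F-L replicate 1.

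Thrombospondins 1 and 2 bind CD36 and CD47 and are known as inhibitors of vessel growth, and thrombospondin-1 also activates latent TGF-beta. Thbs1 (Entrez 21825, chromosome 2, 118111876 to 118127133) was at 11.3 and 9.86 RPKM in F-H-L, 19.0 and 34.7 RPKM in F-H, and 2.65 and 29.7 RPKM in F-L. The F-L libraries differed 11.2-fold, the widest gap between 2 libraries of a group among the 10 genes, and spanned the F-H-L values. Thbs2 (Entrez 21826, chromosome 17, 14665500 to 14694262) was at 4.35 and 4.23 RPKM in F-H-L, 7.77 and 17.4 RPKM in F-H, and 1.35 and 4.43 RPKM in F-L. F-H lay above both other groups, and F-L replicate 2 came out slightly above F-H-L.

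**Figure D1:**
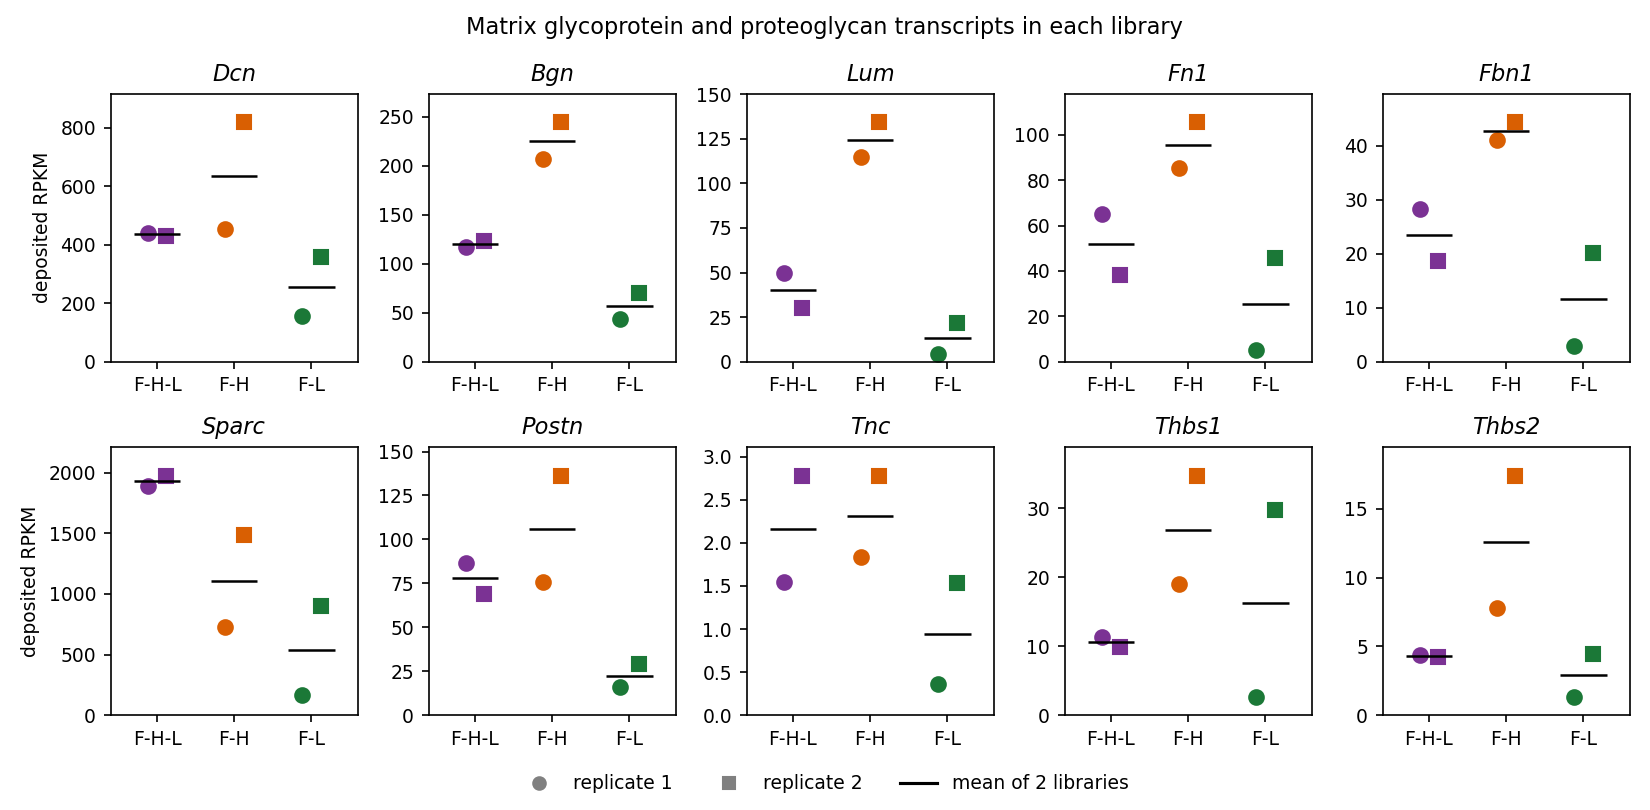
Deposited RPKM (vertical axis, linear and from 0, scaled per gene) of the 10 genes by group, with a circle for replicate 1, a square for replicate 2 and a line for the mean of the 2 libraries. F-L replicate 1 is the lowest point in every panel, and Sparc alone has both F-H-L libraries above both F-H libraries.

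The libraries of a group differed most in F-L. Replicate 2 exceeded replicate 1 in 10 of 10 genes in F-L, by 1.61-fold to 11.2-fold with a median of 4.47-fold, and in 10 of 10 genes in F-H, by 1.08-fold to 2.24-fold with a median of 1.66-fold. In F-H-L replicate 2 was the higher library for 3 of 10 genes, Bgn, Sparc and Tnc, and the ratio of replicate 2 to replicate 1 ran from 0.591 to 1.80. Levels were also expressed as log2 CPM (counts scaled to library size with TMM factors) centred on each gene's own mean over the 6 libraries. On that scale the mean of the 10 genes was 0.35 and 0.29 in F-H-L, 0.75 and 1.28 in F-H and then -2.31 and -0.35 in F-L.

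**Figure D2:**
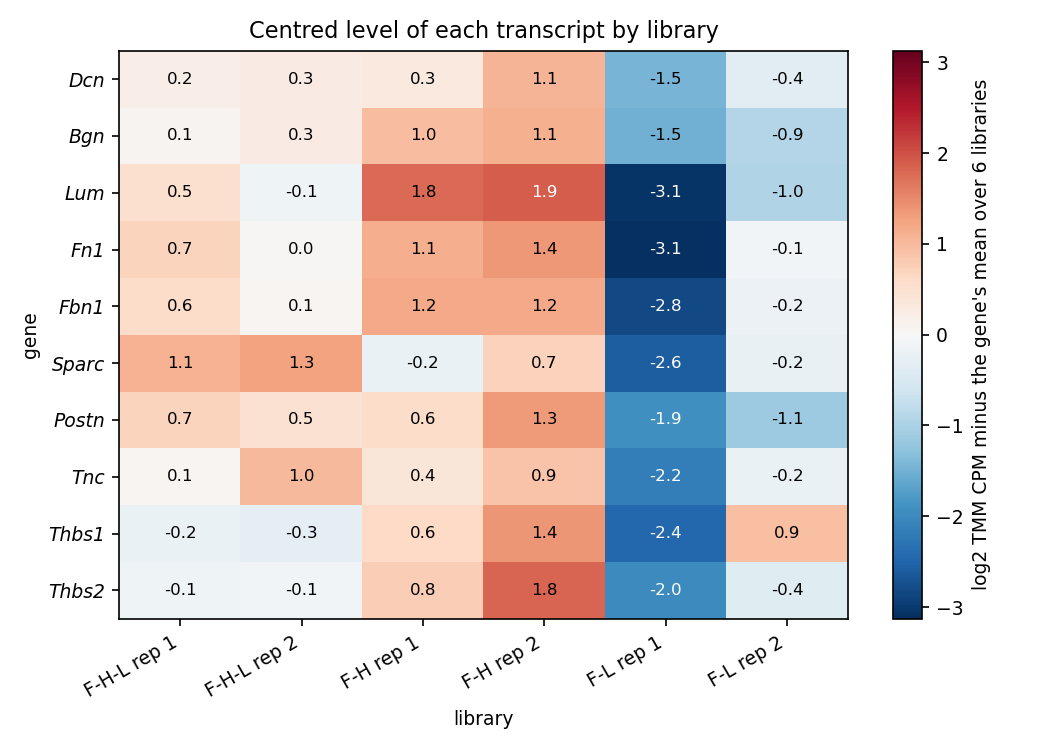
Centred log2 CPM of each gene (rows) in each library (columns), where red is above and blue below the gene's mean over the 6 libraries. F-L replicate 1 is the darkest blue column, F-H replicate 2 is red for all 10 genes, and Thbs1 differs from the rest in F-L replicate 2, where it is above its mean.

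Upstream sequences are shown for 3 of the genes: Bgn and Postn, which had the smallest unadjusted p of the 10 genes in both comparisons with F-L, and Sparc, which was high in other libraries than the rest. The sequences come from RefSeq promoters in build GRCm38.p6, in which 6 of the 10 genes (Postn, Bgn, Sparc, Tnc, Thbs2 and Fbn1) were matched, with 8 start sites. Each is the 250 bases before a start site, read on the gene's strand, and capitals mark the motifs that were searched.
Bgn, + strand, chrX:73483351-73483600: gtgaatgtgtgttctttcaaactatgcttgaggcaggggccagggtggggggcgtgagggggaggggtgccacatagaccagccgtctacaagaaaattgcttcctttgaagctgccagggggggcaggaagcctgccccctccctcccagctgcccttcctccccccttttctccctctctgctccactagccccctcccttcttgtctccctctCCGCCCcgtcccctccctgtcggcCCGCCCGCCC
Postn, + strand, chr3:54360857-54361106: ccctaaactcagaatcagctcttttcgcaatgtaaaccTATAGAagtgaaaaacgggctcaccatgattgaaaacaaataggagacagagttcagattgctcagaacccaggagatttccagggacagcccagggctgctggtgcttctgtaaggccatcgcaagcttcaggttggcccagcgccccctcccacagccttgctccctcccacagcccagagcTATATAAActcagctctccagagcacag
Sparc, − strand, chr11:55420081-55420330: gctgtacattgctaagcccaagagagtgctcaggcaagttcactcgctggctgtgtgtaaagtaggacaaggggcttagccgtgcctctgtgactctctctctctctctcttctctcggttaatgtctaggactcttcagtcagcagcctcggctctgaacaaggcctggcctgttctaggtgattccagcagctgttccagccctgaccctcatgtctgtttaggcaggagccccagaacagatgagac

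The 5 motifs, searched on both strands, were TATANA (TATA box), GGGCGG (SP1), GTCTGNC (SMAD), TGANTCA (AP-1) and GGAATG (TEAD). In the Postn window above, which is the second of 2 start sites of that gene, overlapping TATANA matches lay 28 to 21 bases before the start. The window of its first start site, not shown, held no TATANA match. Its only match was GTCTGNC on the reverse strand, 193 to 187 bases before the start. In the Bgn window 3 GGGCGG matches lay on the reverse strand, at 34 to 29, 10 to 5 and 6 to 1 bases before the start, and the last 2 overlap. None of these letters occurred in the Sparc window. Over the 6 genes, TATANA was found in 3 (22.6% of all 32851 promoter windows hold it), GGGCGG in 3 (32.7%), GTCTGNC in 2 (12.6%), TGANTCA in 0 (6.75%) and GGAATG in 0 (12.6%). Postn and Tnc were searched in 2 windows each and counted once, while the percentages are of single windows, so the counts and percentages differ in unit. A match is a description of letters and not a bound site.

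How these transcripts stood under continuous high-fat feeding was addressed by F-H against F-L. All 10 genes had a higher fitted level in F-H, also with each of the other scalings tried and without any 1 library. Some of these differences were near 0. Without F-L replicate 1 the log2 fold change was 0.11 for Thbs1 and 0.55 for Sparc, against 2.78 for Lum. With libraries scaled to their adipocyte markers it was 0.09 ± 1.44 (SE) for Dcn, against 2.54 ± 1.34 for Lum. Lum had the largest log2 fold change, 3.49 ± 0.75 (SE, n = 2 libraries per group, edgeR adjusted p = 0.0761), followed by Postn at 2.48 ± 0.44 (adjusted p = 0.0643). Bgn, at 2.23 ± 0.35, had the smallest adjusted p of the 10, 0.0559. None of the 10 genes passed an adjusted p of 0.05 in edgeR's quasi-likelihood fit over all 22289 genes tested, in which 0.866% of genes passed and 0.251% passed as lower (193 genes, 137 higher and 56 lower, against 101 higher and 3659 lower with libraries scaled to their adipocyte markers). At an unadjusted p under 0.05, 6 of the 10 were higher (Postn, Bgn, Dcn, Lum, Thbs2 and Fbn1), where 12.5% of all genes were.

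The remaining log2 fold changes of F-H over F-L were 2.36 ± 0.64 for Thbs2, 2.18 ± 0.96 for Fn1, 2.15 ± 0.84 for Fbn1, 1.54 ± 0.54 for Dcn, 1.54 ± 0.76 for Tnc, 1.303 ± 0.90 for Sparc and 0.99 ± 0.99 for Thbs1. Their adjusted p ran up to 0.557, that of Thbs1. The median over the 10 genes was 2.16, beside -0.12 over all genes tested. In deposited RPKM, 8 of the 10 had both F-H libraries above both F-L libraries, where 20.9% of all genes did, and 0 of the 10 had both below, where 36% of all genes did. The exceptions were Sparc and Thbs1, in which F-L replicate 2 lay above F-H replicate 1.

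The size and the calls depended on the F-L libraries. Without F-L replicate 1 the median of the 10 genes was 1.34, beside -0.12 over all genes. Without F-L replicate 2 it was 3.23, beside 0.04 over all genes. More of the 10 passed in either case, as did more of all genes, but F-L then rested on 1 library. With all 6 libraries DESeq2 called 5 of the 10 as higher, Postn, Bgn, Lum, Thbs2 and Dcn (adjusted p = 0.0499 for Dcn). It called 2193 of all genes as higher. With libraries scaled to their adipocyte markers the median was 0.74, beside -1.96 over all genes, and 0 of the 10 had an unadjusted p under 0.05.

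The comparison of F-H-L with F-L addressed diet cycling against low-fat feeding. 9 of the 10 genes had a higher fitted level in F-H-L, but 1 of 10, Sparc, did when libraries were scaled to their adipocyte markers. Sparc was foremost at a log2 fold change of 2.15 ± 0.92 (SE, n = 2 libraries per group, edgeR adjusted p = 0.289), and Postn followed at 2.07 ± 0.43 (adjusted p = 0.274). Lum was at 1.87 ± 0.70 and Bgn at 1.35 ± 0.34. Of all genes tested 0% passed an adjusted p of 0.05, and so 0 of the 10 did. At an unadjusted p under 0.05 edgeR had 3975 genes, DESeq2 called 2444 genes at an adjusted p under 0.05, and limma on log2(RPKM + 1) called 0. Postn, Bgn and Lum were the 3 of 10 that were higher at an unadjusted p under 0.05, beside 8.32% of all genes, and 0 of 10 were lower, beside 9.51% (17.8% in either direction).

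The remaining log2 fold changes of F-H-L over F-L were 1.498 ± 0.76 for Tnc, 1.32 ± 0.93 for Fn1, 1.305 ± 0.82 for Fbn1, 1.04 ± 0.54 for Dcn, 0.85 ± 0.62 for Thbs2 and -0.32 ± 0.98 for Thbs1. The median over the 10 was 1.33, beside -0.09 over all genes tested. In deposited RPKM the groups did not overlap for 6 of 10 genes, all higher in F-H-L (Postn, Bgn, Dcn, Lum, Sparc and Tnc), beside 21.5% of all genes, and for 0 were they lower, beside 33.3%. With TMM-scaled CPM both F-H-L libraries lay above both F-L libraries for 9 of 10, Thbs1 being the exception. The share of all genes was not counted on that scale. TMM factors were 1.08 and 1.16 in F-L and 0.97 and 0.90 in F-H-L, which lowers F-L for every gene relative to RPKM. Without F-L replicate 2 the median was 2.68 and Thbs1 turned to 2.23, but F-L was then replicate 1 alone, whose epididymis markers exceeded its adipocyte markers. Calls appeared in that fit, among the 10 and among all genes. Without F-L replicate 1 the median was 0.63, and calls appeared among all genes but not among the 10. With adipocyte scaling the median turned to -0.59, beside -3.05 over all genes. This comparison shares the F-L libraries with the preceding one.

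The comparison of F-H-L with F-H addressed what cycling did relative to staying on the high-fat diet. 9 of the 10 genes had a lower fitted level in F-H-L, led by Lum, Thbs2 and Thbs1, and Sparc had a higher one, which turned lower with libraries scaled to their adipocyte markers. The log2 fold change of Lum was -1.61 ± 0.70 (SE, n = 2 libraries per group, edgeR adjusted p = 0.495), that of Thbs2 was -1.51 ± 0.63 (adjusted p = 0.479) and that of Thbs1 was -1.31 ± 0.99. Sparc was at 0.85 ± 0.89, and at -0.19 with that scaling. Again 0% of all genes passed and 0 of the 10 did. edgeR had 2362 genes at an unadjusted p under 0.05, DESeq2 called 1196 genes at an adjusted p under 0.05 but 0 of the 10, and limma on log2(RPKM + 1) called 0 genes. Bgn was the 1 gene of 10 that was lower at an unadjusted p under 0.05, at -0.88 ± 0.34, beside 5.68% of all genes, and 0 were higher, beside 4.92%.

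Smaller log2 fold changes of F-H-L over F-H were -0.86 ± 0.92 for Fn1, -0.85 ± 0.81 for Fbn1, -0.50 ± 0.53 for Dcn, -0.41 ± 0.42 for Postn and -0.04 ± 0.74 for Tnc. Without F-H replicate 2 Postn was at 0.027 and Tnc at 0.24, and without F-H-L replicate 1 Tnc was at 0.37. The median over the 10 genes was -0.85, beside 0.10 over all genes tested. In deposited RPKM both F-H-L libraries lay below both F-H libraries for 7 of 10 genes (Bgn, Dcn, Lum, Fn1, Thbs1, Thbs2 and Fbn1), beside 27.6% of all genes. Both lay above for Sparc alone, beside 33.6% of all genes. Fitted to the 4 libraries of these groups alone, 289 genes passed and 0 of the 10 did. At an unadjusted p under 0.05 that edgeR fit had 6 of the 10 and 5294 of all genes, against 2362 genes with all 6 libraries. Neither F-L library takes part in this contrast, but both add to the estimate of spread. Lum was at -1.68 without F-L replicate 1 and at -1.67 without F-L replicate 2. Its SE was 0.26 in either fit, against 0.70 with all 6 libraries.

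**Figure D3:**
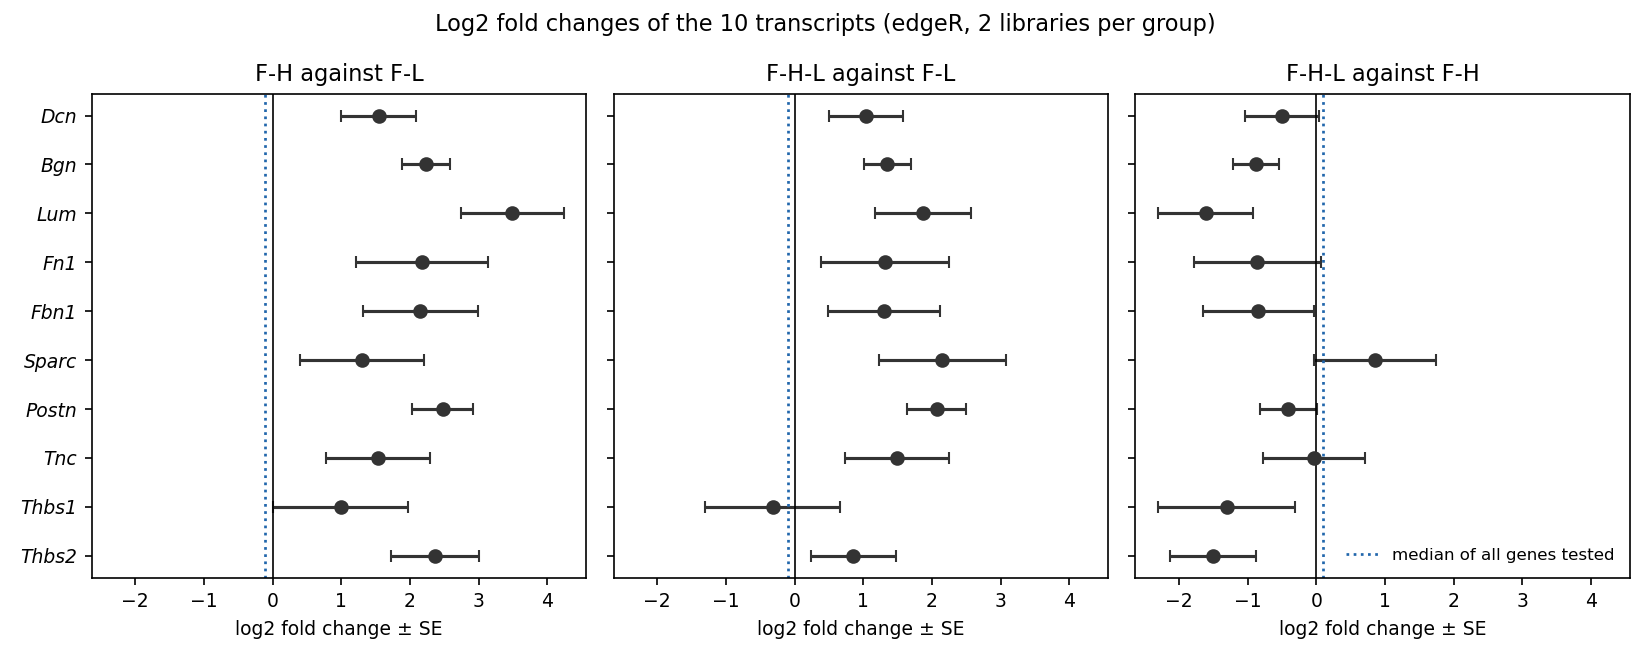
Log2 fold change ± SE of each gene (horizontal axis) in the 3 comparisons, from the edgeR fit with 2 libraries per group, with a dotted line at the median of all genes tested. All 10 points lie above 0 for F-H against F-L, 9 do for F-H-L against F-L, and 9 lie below 0 for F-H-L against F-H. With libraries scaled to adipocyte markers 1 would lie above 0 for F-H-L against F-L and 0 for F-H-L against F-H.

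Markers of other cells moved between the same groups. The 14 adipose progenitor markers summed to 576 to 616 RPKM in F-H-L, 759 to 976 RPKM in F-H and 252 to 405 RPKM in F-L, the same order of groups as for 8 of the 10 genes by mean RPKM. That list includes Mfap5, itself a matrix gene. Taken singly, 11 of the 14 had a higher fitted level in F-H-L than in F-L and 3 a lower one. Pdgfra overlapped between these groups, at 10.1 and 8.57 RPKM in F-H-L and 9.95 and 10.5 RPKM in F-L. The 20 macrophage markers summed to 1345 to 1720 RPKM in F-H-L, 8748 to 13578 RPKM in F-H and 467 to 924 RPKM in F-L, and 8 of the 20 passed the test as higher in F-H than in F-L, beside 0.615% of all genes. With median-ratio factors, with the 4 libraries alone and with the replicate block 0 of the 20 passed, but there 0 of all genes passed. DESeq2 called 19 of the 20 as higher, beside 2193 of all genes, and the fit without the low-count filter 19, beside 1968. Limma called 10 on log2(RPKM + 1), beside 242 genes, and 16 on log2(RPKM + 0.1), beside 495. With adipocyte scaling 4 were called, beside 101 genes. The median log2 fold change of the 20 was 3.81 without F-L replicate 1 and 4.69 without F-L replicate 2. Within F-H the macrophage sum was higher in replicate 1, as were 17 of the 20 markers (not Cd9, Gpnmb and Trem2), while all 10 matrix genes were higher in replicate 2. The adipocyte markers summed to 30907 to 34961 RPKM in F-H-L, 12324 to 18680 RPKM in F-H and 3062 to 23309 RPKM in F-L. Sparc was the one gene of the 10 that, like this sum, was highest in both F-H-L libraries. The part of these markers in the differences was not tested, and in bulk tissue fewer cells of a type and less RNA per cell cannot be told apart.

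**Figure D4:**
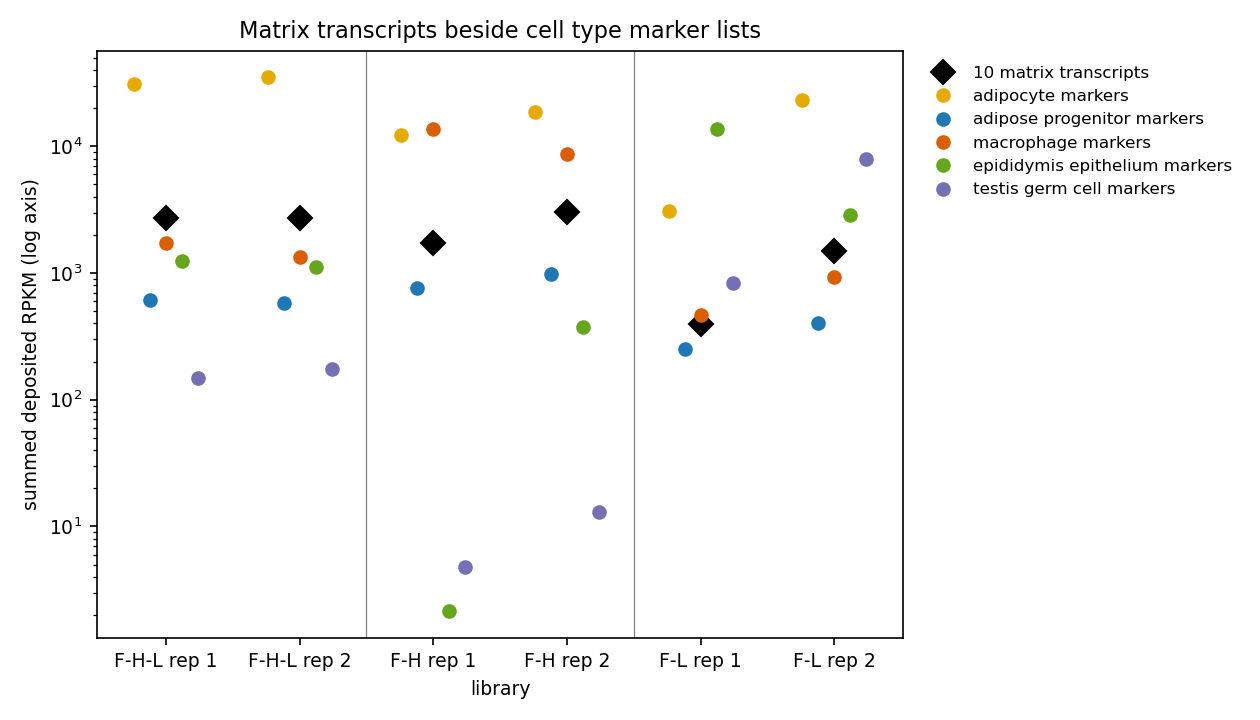
Summed deposited RPKM (vertical axis, log scale) of the 10 matrix genes (black diamonds) and of 5 marker lists (coloured circles) in each library. In F-L replicate 1 the epididymis markers, at 13649 RPKM, exceed the adipocyte markers, at 3062 RPKM, and the matrix genes, at 397 RPKM, are at their lowest.

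Ratios of 2 genes within a library do not depend on how libraries are scaled, and those given here were chosen after the values had been seen, so they carry no test. Dcn and Lum are neighbours on chromosome 10, on the same strand and 47.3 kb apart in the deposited positions. The ratio of Lum to Dcn was 0.113 and 0.0701 in F-H-L, 0.253 and 0.164 in F-H and then 0.0300 and 0.0611 in F-L, with no overlap between groups. The ratio of Sparc to Dcn was 4.27 and 4.59 in F-H-L, 1.61 and 1.81 in F-H and then 1.06 and 2.52 in F-L. Here F-H-L stood above the other 4 libraries, and F-H lay inside the F-L range. The ratio of Postn to Dcn was 0.196 and 0.161 in F-H-L, 0.167 and 0.167 in F-H and then 0.101 and 0.0808 in F-L, so that F-L alone was apart. The ratio of Bgn to Dcn ran from 0.196 to 0.458, and the groups F-H-L and F-L overlapped. The ratio of Thbs1 to Thbs2 lay between 1.97 and 2.59 in 5 libraries and was 6.71 in F-L replicate 2.

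**Figure D5:**
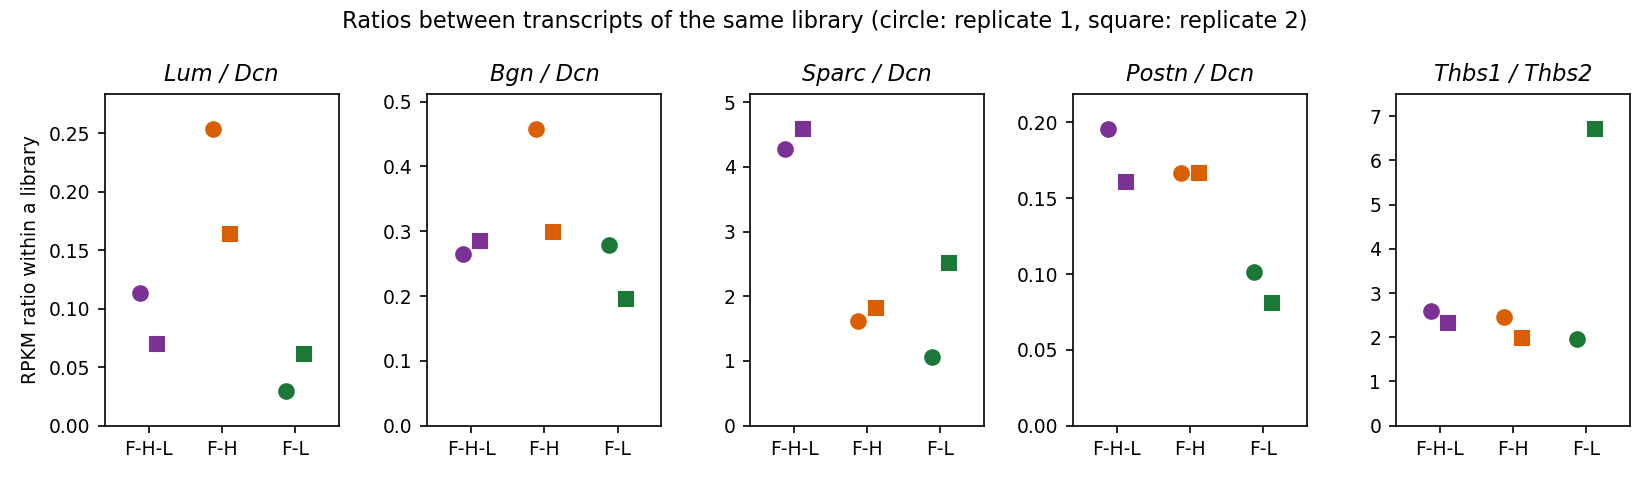
Ratio of the deposited RPKM of 2 genes within each library (vertical axis, from 0) by group, with a circle for replicate 1 and a square for replicate 2. Lum to Dcn separates all 3 groups, Sparc to Dcn is 4.27 and 4.59 in F-H-L, and Thbs1 to Thbs2 has one high point, 6.71, in F-L replicate 2.

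Other genes of the same pathway were followed in 7 lists with 99 genes, of which 98 were tested: other small leucine-rich proteoglycans, other proteoglycans, other matricellular proteins, elastic fibre partners, basement membrane glycoproteins, fibrillar collagens and receptors. In each of the 3 comparisons 0 of the 98 passed in either direction. For F-H against F-L 72 of 98 had a fold change above 0, beside 46.1% of all genes, and list medians of the log2 fold change ran from 0.58 for the other small leucine-rich proteoglycans to 1.68 for the fibrillar collagens. For F-H-L against F-L it was 79 of 98, beside 46.7% of all genes, with medians from 0.65 to 1.56 for the same 2 lists. For F-H-L against F-H it was 41 of 98, beside 55.1% of all genes, with medians from -0.81 for the receptors to 0.56 for the basement membrane genes. The 8 fibrillar collagen genes split in this comparison, with no overlap between groups in RPKM for any of them. Of all genes 33.6% were higher without overlap and 27.6% lower, and 0 of the 8 had an unadjusted p under 0.05 in edgeR. Col1a1, Col1a2, Col3a1 and Col5a2 were lower in both F-H-L libraries, as 7 of the 10 genes were, and Col5a1, Col5a3, Col2a1 and Col11a1 were higher. Col3a1, the most abundant by RPKM, was at 329.9 and 331 RPKM in F-H-L and 420.1 and 615 RPKM in F-H. Col5a3 was at 135 and 171 RPKM in F-H-L and 66.3 and 62.0 RPKM in F-H, and Col2a1 and Col11a1 were near 0 in both groups.

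The absence of calls in the 7 lists depended on the F-L libraries. Some of the 98 genes passed in each comparison when either was left out, as did many more of all genes, but F-L then rested on 1 library. For F-H against F-L the median log2 fold change of the 98 was 0.86 without F-L replicate 1 and 1.61 without F-L replicate 2. Over all genes it was -0.12 and 0.04. For F-H-L against F-L the medians of the 98 were 0.64 and 1.28, beside -0.04 and -0.03 over all genes. For F-H-L against F-H they were -0.28 and -0.27, beside 0 and 0.02 over all genes. The number with a fold change above 0 moved little, from 73 to 78 of 98 for F-H against F-L and from 78 to 80 of 98 for F-H-L against F-L.

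The gene with the smallest p of each list gives its values. Col1a1, a chain of type I collagen, was at 98.8 and 93.2 RPKM in F-H-L, 134 and 153 RPKM in F-H, and 39.4 and 49.1 RPKM in F-L (log2 fold change of F-H over F-L 1.93 ± 0.33, edgeR adjusted p = 0.0610). Spp1, which encodes osteopontin, a matricellular protein that macrophages make, was at 8.95 and 13.0 RPKM in F-H-L, 28.9 and 57.8 RPKM in F-H, and 0.0587 and 0.537 RPKM in F-L (7.41 ± 1.11, adjusted p = 0.0524). Both had 3 groups that did not overlap, in the same order. Cd44, a hyaluronan and osteopontin receptor of leukocytes and other cells, was at 8.58 and 4.05 RPKM in F-H-L, 72.4 and 43.8 RPKM in F-H, and 0.868 and 3.87 RPKM in F-L (4.89 ± 0.87, adjusted p = 0.0640). Sdc3, which encodes the cell-surface proteoglycan syndecan-3, was at 25.4 and 19.9 RPKM in F-H-L, 142 and 57.3 RPKM in F-H, and 7.66 and 12.1 RPKM in F-L (3.60 ± 0.58, adjusted p = 0.0579). Unlike the 10 matrix genes, Cd44 and Sdc3 were higher in F-H replicate 1 than in F-H replicate 2, as the summed macrophage markers were.

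Fbln1, which encodes the elastic fibre protein fibulin-1, was at 10.6 and 11.1 RPKM in F-H-L, 17.1 and 29.0 RPKM in F-H, and 7.38 and 7.83 RPKM in F-L (1.82 ± 0.31, adjusted p = 0.0610). Lama2, a laminin chain of basement membranes, was at 7.95 and 6.63 RPKM in F-H-L, 11.9 and 12.5 RPKM in F-H, and 4.89 and 7.31 RPKM in F-L (1.24 ± 0.27, adjusted p = 0.0766). In both, F-H lay above the other 2 groups. Chad, which encodes the leucine-rich protein chondroadherin, had its smallest p in F-H-L against F-L, at 2.88 and 0.563 RPKM in F-H-L, 0.258 and 0.390 RPKM in F-H, and 0.221 and 0.150 RPKM in F-L (log2 fold change of F-H-L over F-L 3.42 ± 1.03, adjusted p = 0.274). It was the highest in F-H-L of the 3 groups, but at a low level and with its libraries far apart. Without F-L replicate 1, and likewise without F-L replicate 2, Col1a1, Spp1, Cd44, Sdc3, Fbln1 and Lama2 all passed in F-H against F-L (edgeR adjusted p up to 0.0329 without replicate 1 and 0.0169 without replicate 2). Chad did not pass in F-H-L against F-L (adjusted p = 0.161 without replicate 1 and 0.160 without replicate 2).

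The genes whose profile over the 6 libraries lay nearest to the mean profile of the 10 were Mfap5, Loxl2, C4b, Hilpda, Col5a2 and Fstl1, in that order. Likeness was the root mean square distance between centred log2 CPM profiles, from 0.16 for Mfap5 to 0.23 for Fstl1, among 8917 genes with a mean of at least 5 RPKM, and the 10 genes themselves lay 0.31 (Fbn1) to 0.68 (Sparc) from their mean. Mfap5, a microfibril protein, was at 30.3 and 26.6 RPKM in F-H-L, 46.9 and 75.1 RPKM in F-H, and 5.38 and 22.3 RPKM in F-L. Loxl2, an enzyme that crosslinks collagen, was at 5.15 and 4.51 RPKM in F-H-L, 6.90 and 10.8 RPKM in F-H, and 1.21 and 3.58 RPKM in F-L. Both were highest in F-H replicate 2 and lowest in F-L replicate 1. The remaining 4 encode complement component 4B, whose reads may be shared with its near-identical copy C4a, a hypoxia-inducible lipid droplet protein, a type V collagen chain and follistatin-like 1, a secreted glycoprotein. The library farthest from 0 in the mean profile was F-L replicate 1, at -2.31.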

How the data were processed

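The deposited table holds whole-number counts per gene and library and RPKM values. Per the file headers the authors gave both for each library, and the deposited RPKM equals counts over the gene length (column Length, unit: other) and the library total to within a relative 1e-05 in 100% of values above 50 counts. The tools named, without roles, per the submitters' processing notes are bcl2fastq, HISAT2 2.1.0 and HTSeq, with build mm10; annotation release and strand setting were not given in the sources used here, so reads of overlapping antisense genes cannot be told apart.

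Counts were fitted with edgeR 4.0.16 in R 4.3.3: filterByExpr kept 22289 of 48897 genes, all 10 members among them, TMM scaling was used, and the 3 groups entered a single quasi-likelihood fit of 6 libraries (3 residual degrees of freedom, BCV 0.631). Two-sided p-values were adjusted over all genes tested after Benjamini and Hochberg and called under 0.05; SE is the log2 fold change over the square root of F. The members, gene lists and tests were chosen with earlier results of these data known. Members were all named; from each of the 7 pathway lists the genes past the test, or else the 1 with the smallest p, and the 6 genes nearest in profile. Libraries of a group differed beyond counting noise (chi-square per degree of freedom 59.6 to 710). Alternatives were median-ratio factors, scaling to adipocyte markers, no filter, DESeq2 1.42.0, limma 3.58.1 on log2(RPKM + 1) or (RPKM + 0.1), the 4 libraries of both groups alone, a replicate block and each library left out. The fit was tested on simulated counts in which some genes were raised in the first group of a comparison. It found 7% of 4-fold and 78% of 16-fold changes in F-H against F-L. These shares were 6% and 69% in F-H-L against F-L, and 3% and 78% in F-H-L against F-H. A gene that did not pass may therefore still differ between groups. Tables and figures used Python 3.11.15 and matplotlib 3.10.9.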

Additional observations from a re-analysis of the deposited data

How the results depend on the processing

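In F-H against F-L, genes past the adjusted p numbered 193, but 0 with median-ratio factors, with the 4 libraries alone or with a replicate block, 3760 with adipocyte scaling, 6025 without the filter, 6035 by DESeq2, 411 by limma on log2(RPKM + 1) and 1040 on log2(RPKM + 0.1), and 0 to 5799 with 1 library left out. Members past it numbered 7 without the filter, 5 by DESeq2, 1 by limma on log2(RPKM + 0.1) and 0 to 10 with 1 library left out. The members' median was 0.74 with adipocyte scaling and 1.34 to 3.23 with 1 library left out. In F-H-L against F-L, 7105, 3910 and 2444 genes passed with adipocyte scaling, no filter and DESeq2, and 0 to 3508 with 1 library left out; 6 members passed without the filter, 2 by DESeq2 and 0 to 9 with 1 library left out. The members' median was -0.59 with adipocyte scaling and 0.63 to 2.68 with 1 library left out. In F-H-L against F-H, 15, 1759, 1196 and 289 genes passed with adipocyte scaling, no filter, DESeq2 and the 4 libraries alone, and 0 to 828 with 1 library left out; 1 member, Lum, passed without the filter, and 0 to 1 with 1 library left out. The median was -1.91 with adipocyte scaling and -0.94 to -0.59 with 1 library left out.

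Sign changes were confined to 2 comparisons in the settings run. With adipocyte scaling F-H-L against F-L gave Postn -0.56, Bgn -1.37, Dcn -1.45, Lum -0.13, Fn1 -0.32, Tnc -0.62, Thbs2 -1.40 and Fbn1 -0.49, and F-H-L against F-H gave Sparc -0.19. Thbs1 in F-H-L against F-L turned to 0.12 and 0.23 by limma with a pseudocount of 1 and 0.1, to 0.31 with the replicate block and ran from -1.26 to 2.23 with 1 library left out, the last without F-L replicate 2. In F-H-L against F-H, Tnc turned to 0.37 without F-H-L replicate 1 and 0.24 without F-H replicate 2, where Postn was 0.027; with 1 library left out Tnc ran from -0.58 and Postn from -0.72. The cause was not tested.

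There was no sign that replicate numbers pair libraries, since deviations of libraries with the same number correlated across genes at 0.024, -0.138 and -0.019. The replicate block took the genes past the test in F-H against F-L to 0 and left members past it at 0 in all 3 comparisons. A crossed block in F-H-L against F-L, chosen after seeing the data, called 0 genes and put Thbs1 at 0.50.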

Other observations

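Of 16 receptors of these matrix proteins, 12 had both F-H libraries above both F-L libraries in RPKM, beside 20.9% of all genes, 3 had both below (Itga8, Itgb6 and Itgb8), beside 36%, and Itgav overlapped. The 4 described here were singled out after their values had been seen. Cd47, the thrombospondin receptor, was at 39.7 and 35.5 RPKM in F-H-L, 68.1 and 47.0 RPKM in F-H, and 24.9 and 24.1 RPKM in F-L. Itga5, the fibronectin receptor subunit, was at 9.69 and 9.53 RPKM in F-H-L, 22.6 and 21.5 RPKM in F-H, and 1.80 and 6.36 RPKM in F-L. Its partner Itgb1 was at 138 and 126 RPKM in F-H-L, 148 and 161 RPKM in F-H, and 75.3 and 97.7 RPKM in F-L. In these 3 the groups did not overlap and F-H was the highest, though with all 6 libraries none passed edgeR's adjusted p in any comparison (smallest 0.0746, for Cd47 in F-H against F-L). Cd36, another thrombospondin receptor and the fatty acid transporter of adipocytes, was at 881 and 777 RPKM in F-H-L, 792 and 1097 RPKM in F-H, and 43.3 and 538 RPKM in F-L, where only F-L stood apart.

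F-H replicate 1 had the lowest sums of 10 mesothelial markers, 2.46 RPKM against 90.8 to 980 RPKM in the other 5 libraries, with Msln and Bnc1 at 0 counts. Its 10 smooth muscle and pericyte markers summed to 73.5 RPKM, against 289 to 510 RPKM in the others.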
